A study of Mus musculus with 3 samples.

Results

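Alanine tRNAs are the transfer RNAs that bring alanine to the ribosome, and in the mouse they carry 1 of 3 anticodons, AGC, CGC or TGC. Fragments of them were followed in small RNA of the mouse epididymis, the duct in which sperm mature, taking every tRNA gene whose deposited name begins with tRNA-Ala-AGC, tRNA-Ala-CGC or tRNA-Ala-TGC. The rule found 44 of 446 tRNA genes: 23 with anticodon AGC, 10 with CGC and 11 with TGC. Of these, 34 had reads (15, 9 and 10 in the same order) and 10 had 0 reads in all 3 libraries.

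The study compared 1 wild-type library with 2 libraries from Alkbh3-/- mice, numbered by their labels as knockout 1 and knockout 2. All libraries came from total RNA of epididymis, from which pieces of 15 to 50 nt were cut out of a gel. The wild-type library is labelled B6WT, a name the labels do not spell out. The sources used here do not otherwise state the strain of either group, the age or the design of the Alkbh3 allele, nor whether each knockout library comes from its own animal. The p-values rest on the spread between the 2 knockout libraries, pooled over features of like abundance. That spread may therefore be technical. The level of Alkbh3 mRNA was not analysed here, so the genotype labels were not checked against it.

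An alanine tRNA is recognised by its synthetase mainly through a G·U pair in the acceptor stem, and the A of the AGC anticodon is converted to inosine, which lets 1 tRNA read several alanine codons. Cleavage at the anticodon loop gives 5′ fragments of alanine tRNAs that begin with a run of guanines, and in human cells such fragments are known to hold back translation initiation. ALKBH3 is a demethylase whose targets in tRNA include 1-methyladenosine and 3-methylcytidine, and in human cells tRNA that keeps these marks is known to be cut less readily by the nuclease angiogenin. Small RNAs of the epididymis, tRNA fragments among them, are known to be passed to maturing sperm.

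The gene tRNA-Ala-AGC-2-1 is shown because its sequence lets the fragment lengths below be placed on the molecule. It lies at chr13:21222586-21222657 on the plus strand of GRCm38.p6 (the RefSeq name of the mm10 assembly), outside any GENCODE gene, and was read from the RefSeq promoter window of the neighbouring gene Gm32420. Capitals mark the leading run of 5 guanines and the anticodon at positions 33 to 35, counted from the first base.
tRNA-Ala-AGC-2-1: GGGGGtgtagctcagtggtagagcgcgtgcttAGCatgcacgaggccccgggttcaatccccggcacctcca
A read of 32 nt that began at the first base would end directly before the anticodon, and one of 30 nt would end 2 bases before it.
first 32 bases: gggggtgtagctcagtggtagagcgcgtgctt
first 30 bases: gggggtgtagctcagtggtagagcgcgtgc
The deposited tables list read lengths but no read sequences, so where reads begin was not observed. It was the only one of the 34 alanine tRNA genes with coordinates whose sequence the reference tables used here contain.

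Depth over 5 RNA classes was 15107055 reads for the wild type, 15411457 for knockout 1 and 21169908 for knockout 2. Reads of tRNA took 44.7%, 36.5% and 38.1% of these reads and the miRNA class 15.1%, 24.8% and 30.7%, so a scaled level moves with the make-up of the library. Levels below are RPM, reads scaled to a 5-class total of 1000000 in each library. Counts over alanine genes differed between knockout 1 and knockout 2 beyond sampling noise (chi-square divided by its degrees of freedom, 3.31). The same measure was 2.20 between the wild type and knockout 1 and 3.33 between the wild type and knockout 2, with the lowest value for the pair of lowest depth, on which this measure depends. Intervals on shares are Wilson 95% intervals and cover counting error only, because without molecular identifiers several reads may stem from 1 molecule.

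Alanine tRNAs were a minor source of tRNA reads in every library. In the table of counts per gene the wild type had 5584 such reads, knockout 1 had 6748 and knockout 2 had 10459. This was 0.139% of tRNA reads in the wild type (interval 0.136 to 0.143%), 0.202% in knockout 1 (0.197 to 0.207%) and 0.219% in knockout 2 (0.215 to 0.224%). Both the share and the level (370, 438 and 494 RPM) were higher in both knockout libraries than in the wild type, a single library with no replicate to set them against.

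The 3 anticodons stood at different levels, with Ala-CGC far above the other two in every library. Ala-CGC stood at 316 RPM for the wild type, 387 for knockout 1 and 424 for knockout 2, the 10th highest of 50 anticodons with reads. Both knockout libraries lay above the wild type, and the knockout mean was 405 ± 26.3 RPM (SD, n = 2). Ala-TGC stood at 36.6, 32.4 and 49.3 RPM, so the knockout libraries lay on either side of the wild type. Ala-AGC was lowest, at 17.3, 18.5 and 20.7 RPM, with both knockout libraries slightly above the wild type. Ala-CGC made up 85.4%, 88.4% and 85.8% of all alanine reads, Ala-TGC 9.90%, 7.41% and 9.97%, and Ala-AGC 4.67%, 4.22% and 4.20%. The order CGC, TGC, AGC was the same in each library.

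**Figure D1:**
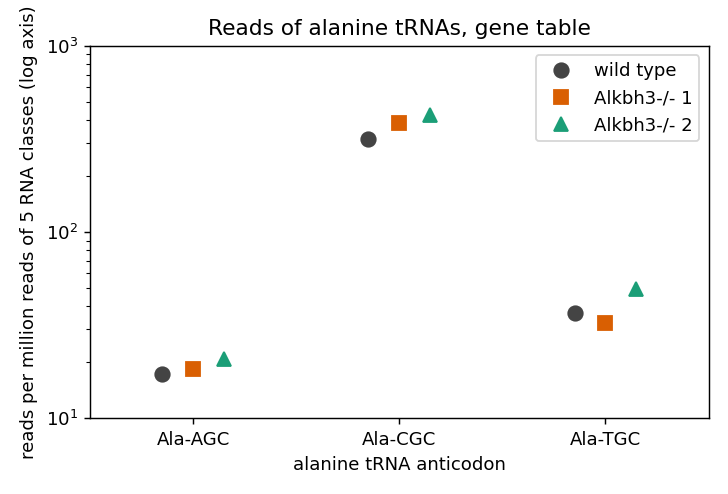
Level of alanine tRNA reads in RPM (log axis) for each anticodon, with 1 point per library. Ala-CGC sits between 316 and 424 RPM in all 3 libraries, and the wild-type point lies inside the knockout range for Ala-TGC only.

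No alanine anticodon passed the test between genotypes. By edgeR's quasi-likelihood test the log2 fold change of knockout over wild type was 0.36 for Ala-CGC (SE 0.54, Benjamini-Hochberg adjusted p = 0.677), 0.18 for Ala-AGC (SE 0.30, adjusted p = 0.677) and 0.16 for Ala-TGC (SE 0.33, adjusted p = 0.739). Of all 45 anticodons tested 5 were called (11.1%), 1 higher (2.22%) and 4 lower (8.89%), so 0 of 3 is near the background. With TMM factors that split was 4 higher and 4 lower. At an unadjusted p under 0.05 edgeR had 0 of the 3, against 22.2% of all anticodons. DESeq2 also called 0 of the 3, against 6.67% of all anticodons, and had 1 at an unadjusted p under 0.05, against 20%. The median of all 45 anticodons was -0.29, and the alanine anticodons stood 0.65 (CGC), 0.48 (AGC) and 0.45 (TGC) above it. Other scalings moved that median up by 0.25 to 0.32 while these distances stayed within 0.65 to 0.67, 0.47 to 0.49 and 0.45 to 0.46. Without knockout 2 the log2 fold change of Ala-TGC was -0.17, and without knockout 1 it was 0.43, so its sign rests on knockout 2.

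Within each anticodon the reads came unevenly from the gene copies. Copies may be alike in sequence, which could not be checked here because only the sequence of tRNA-Ala-AGC-2-1 was available. The sources used here do not state how reads that match several copies were handled, so a value for 1 copy is uncertain. Ala-CGC was almost wholly tRNA-Ala-CGC-5-1, at chr4:132125259-132125330 on the plus strand, within an intron of the delta opioid receptor gene Oprd1, which lies on the other strand. It had 4549, 5722 and 8663 reads, or 301, 371 and 409 RPM, and gave 95.4%, 96.0% and 96.5% of the Ala-CGC reads. Both knockout libraries were above the wild type, with a log2 fold change of 0.37 (SE 0.40, edgeR adjusted p = 0.796). The next copy, tRNA-Ala-CGC-2-1, at chr2:57182078-57182149 within an intron of the noncoding gene 4930555B11Rik, had 7.22, 8.31 and 9.07 RPM.

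Ala-TGC rested on tRNA-Ala-TGC-2-1, which gave 75.9%, 77.6% and 84.2% of its reads. The files place it at chr5:125404247-125404321 on the minus strand, a span of 75 nt, while the RefSeq tRNA there runs from 125404250 to 125404321. Its levels were 27.8 RPM for the wild type, 25.2 for knockout 1 and 41.5 for knockout 2, so the groups overlapped (log2 fold change 0.26, SE 0.48, edgeR adjusted p = 0.907). The copy tRNA-Ala-TGC-3-1, in an intron of the ubiquitin ligase gene Trim7 on the other strand, had 3.31, 3.31 and 3.59 RPM.

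Ala-AGC had no such leading copy. Its most abundant copies were tRNA-Ala-AGC-2-1 at 3.71, 4.02 and 3.21 RPM, tRNA-Ala-AGC-2-2 at 3.11, 3.63 and 2.60 RPM, and tRNA-Ala-AGC-1-1 at 2.52, 3.18 and 2.69 RPM. For the 2-1 and 2-2 copies the wild type lay between the knockout libraries. These 3 copies lie on chromosome 13, in a stretch from 21222586 to 23438768 that holds 12 of the 34 alanine genes with coordinates. A further 11 lie on chromosome X.

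Of the 23 alanine genes with enough reads to be tested none was called by edgeR's quasi-likelihood test, where 41 of 348 genes were called over the whole table (11.8%), 11 higher (3.16%) and 30 lower (8.62%). With TMM factors the split over the table was 12 higher and 6 lower. DESeq2 also called 0 of the 23, against 5.17% of all genes, and had 1 at an unadjusted p under 0.05, against 10.3%. On few reads, 2 of them had an unadjusted p under 0.05 by edgeR, against 15.5% of all genes. The first, tRNA-Ala-AGC-12-1, had 3 reads for the wild type, 6 for knockout 1 and 26 for knockout 2, so most of its difference came from knockout 2 (log2 fold change 2.06, SE 0.94, adjusted p = 0.218). The second, tRNA-Ala-AGC-3-1, named after its values were seen, had 23, 8 and 17 reads (log2 fold change -1.16, SE 0.59, adjusted p = 0.318). The median log2 fold change of the 23 genes was 0.07, against -0.17 over all 348.

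The tables for single libraries divide the reads of each gene into a pair of read classes that carry no description, called here the first and the second class after their column order. By class the alanine anticodons fell apart in the same way in every library. The second class held 1.61%, 1.39% and 1.01% of Ala-CGC reads and 5.43%, 4.51% and 2.96% of Ala-AGC reads. For Ala-TGC it held 87.4% in the wild type (interval 84.9 to 89.6%), 92.7% in knockout 1 (90.6 to 94.4%) and 95.7% in knockout 2 (94.6 to 96.6%). None of the 24 other anticodons with at least 1000 reads in each library reached the share of Ala-TGC, and their median was 1.90%, 2.05% and 2.75%. The class followed the copy as well as the anticodon. Of 20 alanine copies with at least 50 reads, 14 had under 10% of them in the second class, 4 had over 90%, and 2 lay between. The 4 were tRNA-Ala-TGC-2-1 (99.5%), tRNA-Ala-CGC-1-1 (97.0%), tRNA-Ala-CGC-1-2 (92.7%) and tRNA-Ala-TGC-3-1 (91.1%).

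**Figure D2:**
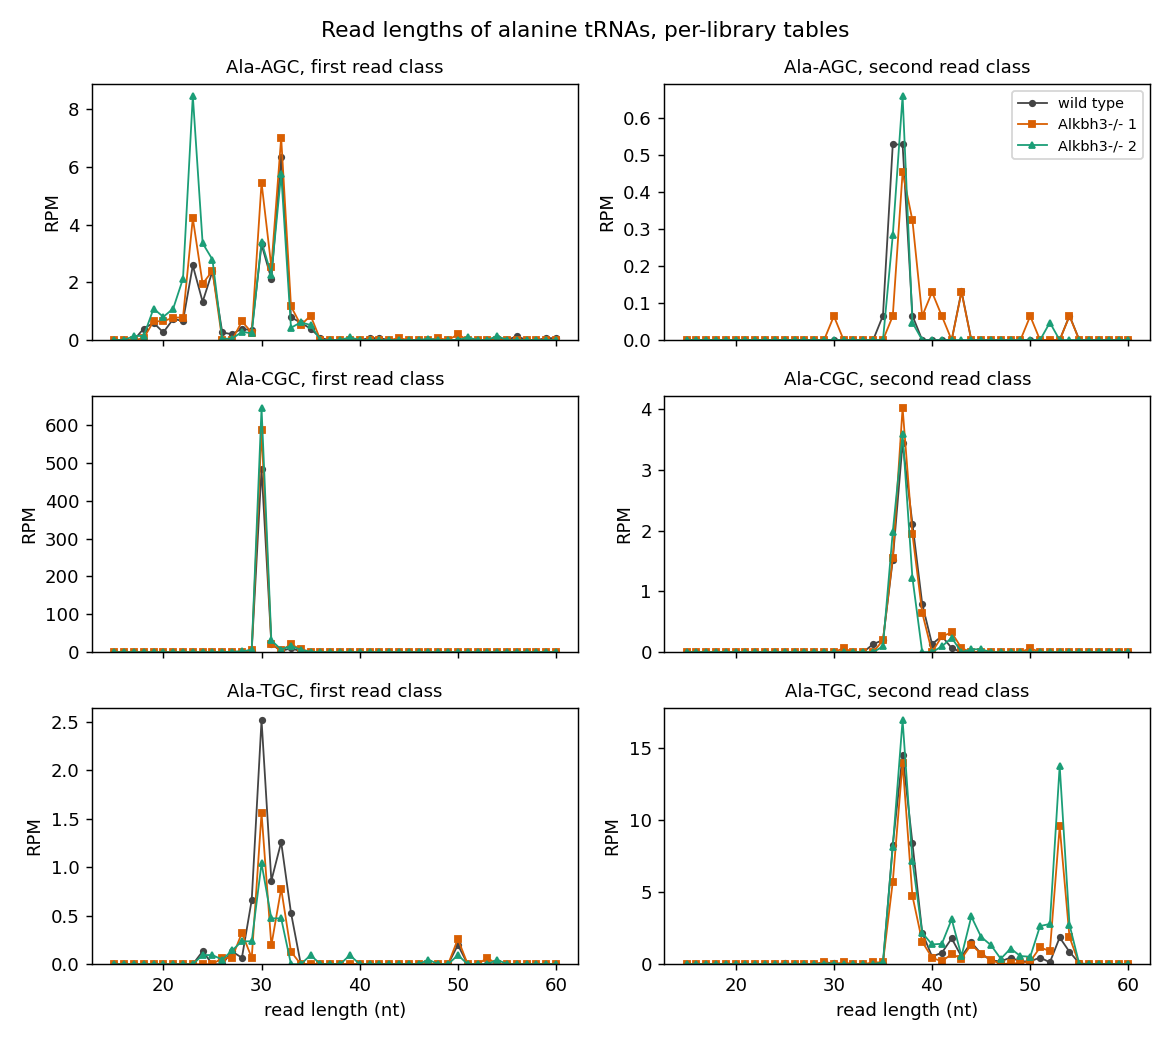
Reads by length for each alanine anticodon and read class in the wild type and both knockout libraries. In the first class Ala-CGC peaks at 30 nt and Ala-AGC has groups at 20 to 25 and 30 to 35 nt. In the second class Ala-TGC has groups at 36 to 38 and 51 to 54 nt, the latter lowest in the wild type.

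Ala-CGC fragments had nearly a single length. Reads of 30 nt made up 91.6%, 90.2% and 90.02% of the first class. Their level was 485, 587 and 645 RPM, higher in both knockout libraries by less than the test could separate (log2 fold change 0.35, SE 0.42, edgeR adjusted p = 0.767). Reads of 33 and 34 nt stood at 12.5, 28.3 and 22.9 RPM, which was 2.36%, 4.35% and 3.19% of the class, with the wild type lowest in each. At 34 nt the log2 fold change was 1.58 (SE 0.71, adjusted p = 0.303) and at 33 nt 0.87 (SE 0.66, adjusted p = 0.638), so neither passed. The length went with the gene copy. For tRNA-Ala-CGC-5-1 the 30-nt reads were 93.4%, 91.8% and 91.7% of its first class, while for tRNA-Ala-CGC-2-1 they were 3.92%, 4.79% and 5.30% and reads of 31 to 33 nt were 90.8%, 91.0% and 89.4%.

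The Ala-AGC reads of the first class held a longer and a shorter group of fragments. Reads of 30 to 35 nt stood at 13.6, 17.5 and 13.0 RPM, with the wild type between the knockout libraries. Reads of 20 to 25 nt stood at 7.94, 10.8 and 18.6 RPM, with the wild type lowest. As shares of the class the shorter group was 32.8% (interval 28.2 to 37.8%) in the wild type, 35.6% (31.4 to 40.1%) in knockout 1 and 54.7% (51.1 to 58.3%) in knockout 2. The intervals of the wild type and knockout 1 overlap, so the higher share is that of knockout 2. The leading short length, 23 nt, had 39, 65 and 179 reads (log2 fold change 1.30, SE 0.69, edgeR adjusted p = 0.405) and did not pass.

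The short and the long Ala-AGC fragments came from different gene copies, split by gene length. In the 4 copies of 72 nt, tRNA-Ala-AGC-2-1 among them, reads of 30 to 35 nt were 92.6%, 96.2% and 96.9% of the first class and reads of 20 to 25 nt were 1.48%, 0.379% and 0%. In the 10 copies of 73 nt reads of 20 to 25 nt were 73.1%, 83.8% and 86.2%, and reads of 30 to 35 nt 10.6%, 8.12% and 5.25%. The pattern held copy by copy over the libraries together. Among copies with at least 20 first-class reads, the 3 of 72 nt had 0 to 1.26% of them at 20 to 25 nt and the 9 of 73 nt had 74.0 to 91.4%. In tRNA-Ala-AGC-2-1 reads of 30 to 32 nt were 87.7%, 81.5% and 89.2% of its first class. Its reads of 32 nt, the length from its first base to the anticodon, numbered 33, 34 and 41. Where these reads begin was not observed.

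**Figure D3:**
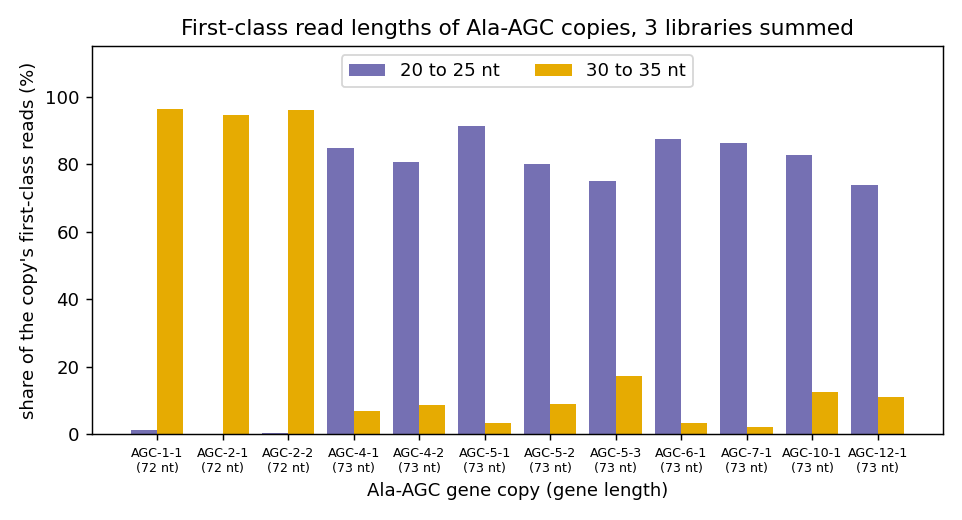
Share of first-class reads of 20 to 25 nt and of 30 to 35 nt in Ala-AGC gene copies with at least 20 such reads over the 3 libraries, by the length of the gene. The 3 copies of 72 nt lie at 94.6 to 96.2% for the longer fragments and the 9 copies of 73 nt at 74.0 to 91.4% for the shorter ones.

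The clearest difference between the wild-type library and the knockout libraries among alanine tRNAs was in long second-class reads of Ala-TGC. The wild type is 1 library, and the 51 to 54 nt window was chosen with earlier results of these data known. Reads of 51 to 54 nt numbered 50 for the wild type, 208 for knockout 1 and 464 for knockout 2, or 3.31, 13.5 and 21.9 RPM. Both knockout libraries lay well above the wild type, with a mean of 17.7 ± 5.95 RPM (SD, n = 2). As a share of the second class, which does not depend on the scaling between libraries, these reads were 7.49% in the wild type (interval 5.72 to 9.73%), 30.4% in knockout 1 (27.0 to 33.9%) and 30.4% in knockout 2 (28.1 to 32.8%). Nearly all of them, 50, 207 and 463 reads, were listed under tRNA-Ala-TGC-2-1. The shorter second-class reads of 36 to 38 nt did not follow them, at 31.2, 24.4 and 32.2 RPM, and those of 39 to 50 nt stood at 9.40, 6.03 and 17.7 RPM. In both of these groups the wild type lay between the knockout libraries.

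**Figure D4:**
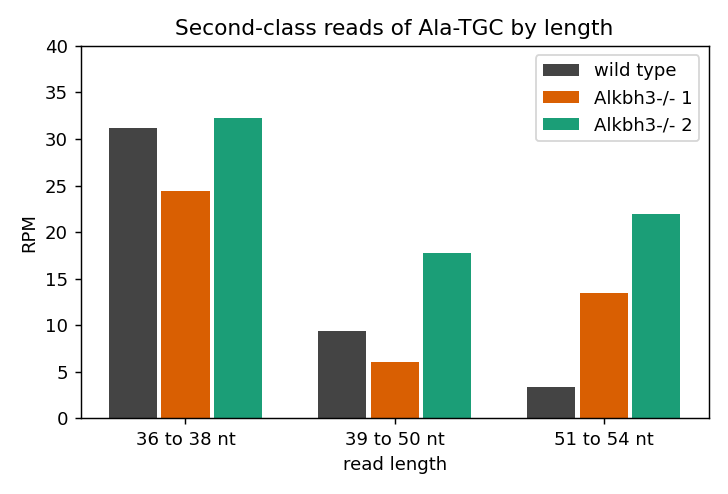
Level of second-class Ala-TGC reads in RPM in 3 ranges of read length, with 1 bar per library. At 51 to 54 nt the bars are 3.31 RPM in the wild type and 13.5 and 21.9 RPM in the knockout libraries, while at the shorter lengths the wild type lies between the knockout libraries.

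Length by length, 2 of the 46 alanine fragment features tested (a feature being 1 anticodon, read class and read length) were higher in the knockout and 0 were lower by edgeR's quasi-likelihood test. Over all 834 features 18 were called (2.16%), 10 of them higher (1.2%) and 8 lower (0.959%), a split that became 32 and 5 with table sums as library size. At an unadjusted p under 0.05 there were 4 alanine features (8.7%), against 12.4% of all. At 53 nt Ala-TGC had 28, 147 and 291 second-class reads, or 1.85, 9.54 and 13.7 RPM, with both knockout libraries above the wild type. The fitted fold was 6.27 (log2 fold change 2.65, SE 0.77, adjusted p = 0.0363). At 52 nt it had 2, 14 and 59 reads, or 0.132, 0.908 and 2.79 RPM. The log2 fold change there was 3.75 (SE 1.10, edgeR adjusted p = 0.037). This length passed the filter for low counts through the knockout libraries alone, so its call is a description and no separate support. On only 2 wild-type reads, the ratio of the pooled knockout level to the wild type was 15.1 with an exact 95% counting interval of 4.03 to 127. The neighbouring lengths of 51 nt, with 7, 18 and 56 reads (log2 fold change 2.04, adjusted p = 0.289), and 54 nt, with 13, 29 and 58 reads (1.42, adjusted p = 0.458), had the same order of libraries and did not pass.

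Both calls depend on the settings. With TMM factors the log2 fold changes were 2.69 at 53 nt and 3.76 at 52 nt, but neither was called (edgeR adjusted p = 0.145 and 0.192), and neither was any of the 834 features. DESeq2 called 53 nt (adjusted p = 0.000643) and gave no adjusted p at 52 nt. These lengths lie above the 15 to 50 nt cut from the gel, and reads over 50 nt were 0.149%, 0.217% and 0.240% of all tRNA reads, also lowest in the wild type. The part of size selection in the result was not tested. In tRNAs other than alanine, reads of 51 to 54 nt of both classes together stood at 511, 649 and 724 RPM, with the wild type lowest. Their second-class reads of 51 to 54 nt stood at 15.5, 29.7 and 9.40 RPM, with the wild type between the knockout libraries. Of 8 other anticodons with at least 30 such reads, 3 were higher and 2 lower in both knockout libraries. The glutamine anticodon Gln-CTG was among those higher, at 0.331, 1.62 and 1.32 RPM, while the serine anticodon Ser-GCT had 5.56, 13.4 and 1.42 RPM.

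The few first-class reads of Ala-TGC were lower in both knockout libraries without passing the test. They came mostly from other copies, since only 4, 7 and 1 of 96, 54 and 68 were listed under tRNA-Ala-TGC-2-1. First-class Ala-TGC reads of 28 to 35 nt stood at 5.89, 3.05 and 2.55 RPM, so both knockout libraries lay below the wild type. The leading length of 30 nt had 38, 24 and 22 reads, with a log2 fold change of -0.96 (SE 0.72, edgeR adjusted p = 0.635). Over all 46 alanine features tested the median log2 fold change was 0.35, against -0.01 over all 834. In 25 of the 46 (54.3%) both knockout libraries were above the wild type, where 33.7% of all tested features were, and in 9 (19.6%) both were below, where 40.5% of all were. Features of 1 tRNA share their source, so these counts are a description.

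Reads of 30 to 36 nt, a range that covers 5′ pieces cut in the anticodon loop but not all of the 3′ pieces, were 97.4%, 97.7% and 98.0% of Ala-CGC reads, 55.6%, 55.7% and 37.9% of Ala-AGC reads and 26.7%, 18.3% and 13.8% of Ala-TGC reads. For all alanine tRNAs together the share was 89.8%, 90.7% and 87.8%, with the wild type between the knockout libraries, and for all other tRNAs 94.2%, 91.6% and 90.6%. The read-length profiles of the 3 alanine anticodons overlapped little. The overlap, the sum of the smaller share at each length averaged over 3 libraries, was 23.3% between AGC and CGC, 13.2% between AGC and TGC and 7.75% between CGC and TGC. Among other anticodons with at least 1000 reads in every library, the most alike was Gly-TCC for Ala-AGC (52.1%), Gln-CTG for Ala-CGC (39.9%) and Asp-GTC for Ala-TGC (39.1%). Next came the valine anticodons Val-AAC (46.5%) and Val-CAC (44.3%) for Ala-AGC, Gly-GCC (33.6%) and Gly-CCC (33.2%) for Ala-CGC, and SeC-TCA (36.3%) and Val-TAC (33.4%) for Ala-TGC.

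Anticodon groups that share a feature with alanine tRNAs were set beside them. Of the 8 tRNAs with A at the first anticodon position, which is converted to inosine, edgeR called 0 higher and 1 lower, the threonine anticodon Thr-AGT, beside 11.1% of all anticodons called (2.22% higher and 8.89% lower), and DESeq2 called 0. Their median log2 fold change was -0.05. The group known for 5′ fragments that begin with guanines holds the 3 alanine anticodons and the cysteine anticodon Cys-GCA, and none of these 4 was called by edgeR (0 at an unadjusted p under 0.05; DESeq2 called 0 and had 1 at that level). Their median was 0.17, and Cys-GCA itself stood at 146, 161 and 141 RPM, with the wild type between the knockout libraries (log2 fold change 0.05, adjusted p = 0.919). Of 10 anticodons known as abundant sources of 5′ fragments in sperm and epididymis, 1 was higher (Glu-CTC) and 1 lower (Gly-GCC) by edgeR, with a median of -0.35. DESeq2 called 2 of these 10, beside 6.67% of all anticodons. Over all 45 anticodons 1 was higher and 4 were lower by edgeR, with a median of -0.29. DESeq2 called 3 of the 45 and had 9 at an unadjusted p under 0.05.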

How the data were processed

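The authors deposited raw read counts per RNA class, per tRNA gene and, in 1 table per library, per tRNA gene and read class. The latter came with lists of read lengths of another unit, each length with a total count and a count per read class. The sums of these counts per read class equalled the class counts. Per the submitters' processing notes the build was mm10 and cutadapt was used; an aligner, a counting tool and a rule for reads that match several copies are not stated there. Alanine genes held 60.2%, 59.2% and 59.2% as many reads in the gene table as in the per-library tables. The sources used here do not state why. Single copies could depart from this: tRNA-Ala-TGC-1-1 had 8, 10 and 18 reads in the gene table but 17 in the per-library tables together. Levels of genes and anticodons come from the former, classes and lengths from the latter.

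The main test was edgeR's two-sided quasi-likelihood test of knockout against wild type (edgeR 4.0.16, R 4.3.3) on counts per anticodon, per gene and per anticodon, class and length, fitted on the whole table. Library size was the 5-class total, filterByExpr removed low features, and Benjamini-Hochberg adjusted p-values were called under 0.05. That filter needed only 1 library above its floor, so a feature could enter through the knockout libraries alone. The knockout pair gives 1 residual degree of freedom, and the wild type is assumed to vary like it. The prior degrees of freedom were infinite, so a p-value rests on features of like abundance and not on a feature's own spread. The standard error was the log2 fold change over the square root of F. The fits were tested on simulated data. Shares were compared without a test.

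Alternatives were TMM factors, table sums or totals without miRNA as library size, DESeq2 1.42.0, no filter, a mean count of at least 50, no dispersion trend, per-library counts, bins of 3 nt, joined read classes and leaving out each knockout library. Genes named were any called, the 5 most abundant per anticodon and the tested one with the largest change. Fragments named were any called, the 3 most abundant per anticodon and class, and the largest changes of at least 1 RPM. The members, lists and length windows were chosen with earlier results of these data known, and tRNA-Ala-AGC-3-1 and the 34-nt, 51-nt and 54-nt reads were named after their values were seen. Sequence and tRNA positions are from RefSeq GRCm38.p6, overlaps with other genes from GENCODE.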

Additional observations from a re-analysis of the deposited data

How the results depend on the processing

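The anticodon and gene tests called 0 alanine features under every alternative run. Of all anticodons these alternatives called from 0% (totals without miRNA) to 17.8% (TMM factors). Of all genes they called from 0.285% (totals without miRNA) to 17.2% (a mean count of at least 50). Over those alternatives that kept all libraries the log2 fold change was 0.18 to 0.51 for Ala-AGC (edgeR or DESeq2 adjusted p = 0.145 to 0.744), 0.36 to 0.69 for Ala-CGC (0.118 to 0.744) and 0.16 to 0.47 for Ala-TGC (0.271 to 0.784). The count of alanine fragment features higher in the knockout, 2 as reported, was 0 with TMM factors (0% of all features called in either direction), with totals without miRNA (1.16%), with no filter (0.385%) and with no dispersion trend (0.36%). It was 1 with DESeq2 (3.36%, with an adjusted p for 20 of 46 and none for 388 of all 834), with a mean count of at least 50 (4.56%) and with bins of 3 nt (3.4%). Both knockout libraries lay above the wild type at 53 and 52 nt, so leaving 1 of them out could not turn the sign. The log2 fold change without 1 knockout library was 2.36 to 2.89 at 53 nt and 2.71 to 4.32 at 52 nt. The 51 to 54 nt window of Ala-TGC was chosen with earlier results of these data known. Its share, knockout over wild type, was 4.06 as reported, 4.05 in genes of at least 50 reads and 3.83 for 50 to 55 nt, a window also chosen after seeing the data. Taken per read of the 5 classes it was 5.35, and the same scaling gave 1.85 for the 20 to 25 nt share of Ala-AGC (1.38 as reported), 1.27 for the 30-nt share of Ala-CGC (0.983), 1.27 for the share of 30 to 36 nt reads of all alanine tRNAs (0.994) and 1.25 for their second-class share (0.966). The 20 to 25 nt ratio was 1.09 to 1.67 without 1 knockout library. Some changes that did not pass the test turned sign. With TMM factors, table sums, DESeq2, totals without miRNA and per-library counts, in that order, the log2 fold change was 0.23, 0.22, 0.17, 0.19 and 0.17 for tRNA-Ala-AGC-2-1 (-0.04 as reported), 0.26, 0.26, 0.20, 0.22 and 0.012 for tRNA-Ala-AGC-2-2 (-0.01) and 0.17, 0.17, 0.10, 0.15 and 0.34 for tRNA-Ala-TGC-4-1 (-0.09). Per-library counts gave -1.74 for tRNA-Ala-TGC-1-1 (0.52 as reported) and -0.068 for tRNA-Ala-TGC-3-1 (0.06). In bins of 3 nt the second-class features turned from 0.09 to -0.29 (Ala-AGC, 37 nt), from -0.42 to 0.016 (Ala-CGC, 38 nt) and from 0.09 to -0.14 (Ala-TGC, 37 nt), and with table sums Ala-TGC at 36 nt turned from -0.26 to 0.022. The cause was not tested. No paired analysis was possible because the wild type is a single library whose labels give no replicate number, so the groups share fewer than 2 numbers. Depth limits values of single copies, many of which have under 50 reads.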

Other observations

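The 11 alanine tRNA genes on chromosome X, all in the stretch from 136367721 to 136590436, were looked at after their values were seen. Together the wild type had 63 of their reads, knockout 1 had 42 and knockout 2 had 38, or 4.17, 2.73 and 1.80 RPM. The exact Poisson intervals, which cover counting error only, were 3.20 to 5.34, 1.96 to 3.68 and 1.27 to 2.46 RPM. The wild type was highest, and its interval overlapped that of knockout 1. Of all 348 genes tested, 48.3% also lay below the wild type in both knockout libraries, and of the 23 alanine genes tested 26.1% did. The chromosome X genes include tRNA-Ala-TGC-5-1, tRNA-Ala-TGC-5-2, tRNA-Ala-TGC-5-3 and tRNA-Ala-TGC-6-1, which held the most first-class Ala-TGC reads. The lower level on chromosome X is thus not independent of the lower first-class level of Ala-TGC above. The 12 alanine genes on chromosome 13 stood at 20.9, 21.9 and 20.9 RPM. No test was run on either group.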
